A study of Mus musculus with 16 samples.

Results

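Genes of the endoplasmic reticulum (ER) stress and amino acid responses were examined in mouse liver: Xbp1, Atf4, Ddit3, Hspa5, Hsp90b1, Sdf2l1, Dnajb9, Herpud1, Trib3 and Asns. The 10 genes were taken by name as well-known members of these responses, out of 19096 genes to which an array probe could be assigned. The choice was made with earlier results of these data known. They were read by 14 of the 41174 probes, through the RefSeq accession of each probe. Hsp90b1 and Trib3 had 2 probes each, Dnajb9 had 3 and the others had 1. All 14 probes were well above background on all 16 arrays, so no gene was lost to the filter on dim probes.

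Each of the 16 one-colour arrays held RNA from the liver of a separate male mouse, taken outside tumours at 57 weeks of age, and the mice formed 4 groups of 4. All of them had received N-diethylnitrosamine (DEN), a carcinogen that starts liver tumours, at 90 mg/kg and 5 weeks of age. WT DEN mice were C57BL/6J animals without further treatment, and WT DEN + PB mice also had phenobarbital (PB), a drug that promotes liver tumours in rodents, in their drinking water at 0.5 g/l from 7 weeks onward. KO DEN and KO DEN + PB mice had the same treatments and carried the Gadd45b tm1Flv null allele in the whole animal. The name of the KO stock includes another strain next to C57BL/6, although the study speaks of a C57BL/6J background, so strain and genotype cannot be told apart in these data. No mice without DEN were analysed here.

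The ER folds and modifies the proteins that a hepatocyte secretes, such as albumin and clotting factors. When unfolded proteins build up in it, the sensors PERK (Eif2ak3), IRE1 (Ern1) and ATF6 start the unfolded protein response. IRE1 splices the mRNA of Xbp1 into a form that encodes an active transcription factor, ATF6 and XBP1 raise chaperones and degradation factors, and PERK phosphorylates eIF2 alpha, which slows most translation but favours that of Atf4. Amino acid shortage reaches the same Atf4 step through the kinase GCN2 (Eif2ak4), and ATF4 then acts on genes such as Asns, Trib3 and, together with other factors, Ddit3. Much of this regulation lies in splicing, cleavage, phosphorylation and translation. An array of mRNA levels does not read cleavage, phosphorylation or translation, and whether its Xbp1 probe reads the splicing could not be checked.

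The promoters of these genes carry short elements through which the factors act, and they are shown for the elements of the ER stress and amino acid responses that some of the 10 genes hold. Windows from 250 bases before to 50 after the annotated start were read from RefSeq (assembly GRCm38.p6, all 10 genes matched), and both strands were searched. The ER stress element was searched as CCAAT, then any 9 bases, then CCACG. It occurred in 39 of 32851 promoter windows of the same length (0.119%), and Hspa5 and Hsp90b1 were among them. The related element ERSE-II was searched as ATTGG, then any 1 base, then CCACG. It occurred in 12 windows (0.0365%), and Herpud1 was among them. The amino acid response element was searched as TGATGNAA, which occurred in 1304 windows (3.97%), among them those of Herpud1, Trib3 and Asns. The XBP1 element TGACGTGG occurred in 222 windows (0.676%) and in none of the 10. The motifs are in capitals, and a match is a match of letters and not a site shown to be bound.
Hspa5, chr2:34771840-34772139, plus strand: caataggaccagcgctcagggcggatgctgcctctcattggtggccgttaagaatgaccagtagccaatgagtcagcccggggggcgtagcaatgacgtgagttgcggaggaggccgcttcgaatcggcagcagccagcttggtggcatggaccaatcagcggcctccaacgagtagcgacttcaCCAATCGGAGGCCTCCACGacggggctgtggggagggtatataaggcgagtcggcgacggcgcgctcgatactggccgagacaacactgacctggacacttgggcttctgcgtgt
Hsp90b1, chr10:86705395-86705694, minus strand: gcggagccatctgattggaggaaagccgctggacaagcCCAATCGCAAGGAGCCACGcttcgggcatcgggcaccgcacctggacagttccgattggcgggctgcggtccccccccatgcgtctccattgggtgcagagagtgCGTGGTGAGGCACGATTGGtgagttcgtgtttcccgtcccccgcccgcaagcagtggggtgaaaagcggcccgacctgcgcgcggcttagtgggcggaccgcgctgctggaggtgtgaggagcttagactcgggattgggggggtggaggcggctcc
Herpud1, chr8:94386179-94386478, plus strand: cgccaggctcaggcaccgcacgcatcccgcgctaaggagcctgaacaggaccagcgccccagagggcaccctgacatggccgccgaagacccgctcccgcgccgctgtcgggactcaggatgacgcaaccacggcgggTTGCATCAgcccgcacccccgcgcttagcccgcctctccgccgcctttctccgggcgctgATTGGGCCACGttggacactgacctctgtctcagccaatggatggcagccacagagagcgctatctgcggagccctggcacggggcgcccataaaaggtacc

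Hspa5 had its ER stress element 65 bases before the start, and Hsp90b1 had 2, of which 1 was on the opposite strand. Herpud1 had its ERSE-II element 52 bases before the start and an amino acid response element on the opposite strand 112 bases before it. The windows of Trib3 and Asns are shown for the amino acid response element, which lay on the opposite strand 14 bases after the start in Trib3 and 23 bases before it in Asns. The window of Dnajb9 is shown because Dnajb9 was, beside Trib3, the gene that passed the test below, and none of the searched letters occurred in it.
Trib3, chr2:152344011-152344310, minus strand: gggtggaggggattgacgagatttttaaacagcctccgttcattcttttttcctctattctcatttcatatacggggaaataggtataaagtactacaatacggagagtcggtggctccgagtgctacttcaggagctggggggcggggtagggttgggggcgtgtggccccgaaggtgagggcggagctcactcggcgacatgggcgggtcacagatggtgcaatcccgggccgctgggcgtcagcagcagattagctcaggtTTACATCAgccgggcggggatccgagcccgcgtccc
Asns, chr6:7693160-7693459, minus strand: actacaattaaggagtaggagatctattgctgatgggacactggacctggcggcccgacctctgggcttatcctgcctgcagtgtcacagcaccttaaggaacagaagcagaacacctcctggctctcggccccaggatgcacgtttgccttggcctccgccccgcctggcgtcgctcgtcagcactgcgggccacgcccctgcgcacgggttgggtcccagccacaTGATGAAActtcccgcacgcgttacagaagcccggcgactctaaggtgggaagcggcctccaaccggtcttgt
Dnajb9, chr12:44210019-44210318, minus strand: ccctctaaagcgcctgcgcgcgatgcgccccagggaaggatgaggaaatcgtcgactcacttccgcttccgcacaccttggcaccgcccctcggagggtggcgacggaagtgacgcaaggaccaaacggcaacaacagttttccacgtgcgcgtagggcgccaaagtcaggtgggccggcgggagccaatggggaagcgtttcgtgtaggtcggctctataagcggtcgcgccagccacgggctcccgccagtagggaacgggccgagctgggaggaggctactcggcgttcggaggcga

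Levels are given as log2 of the processed signal minus the array's 75th percentile, so that 0 is the 75th percentile of all probes on that array, and each gene is described by its brightest probe. A gene was called where the adjusted p of the limma model over all 24457 tested probes was under 0.05 and the change was 1.5-fold or more. The 75th percentile ranged from 136.9 to 294.3 signal units and the share of spots well above background from 58.25% to 67.73%. The genotype labels were borne out by Gadd45b, which was well above background on 8 of 8 WT and 0 of 8 KO arrays (two-sided exact permutation test, p = 0.000155). PB treatment was visible in Cyp2b10, the classical PB-induced cytochrome, which was higher by 6.69 on the log2 scale in WT and by 6.80 in KO.

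PB raised Trib3 and Dnajb9 in KO livers, and both were lower in KO than in WT livers when DEN was given alone. The calls of Dnajb9 depended on the processing and were kept in 2 of 10 alternatives for PB and in 6 of 10 for genotype. The genotype difference of Trib3 under DEN was called on its brightest probe and not on its second (adjusted p of 0.0873). In WT livers none of the 10 genes passed the test for PB, although Trib3 was higher by 0.90 with an unadjusted p of 0.00289 in limma. The difference between the PB effects was not called for Trib3 or Dnajb9 (adjusted p of 0.455 and 0.796). A dependence of the PB effect on genotype was therefore not established. Without PB, the 4 KO livers lay below the 4 WT livers for 5 of the 10 genes (Hspa5, Xbp1, Herpud1, Trib3 and Dnajb9). Of all genes, 11.0% had no overlap in this comparison, counted in either direction. For Hsp90b1, Ddit3, Atf4, Asns and Sdf2l1 the livers of the genotypes overlapped. The 4 means of Hsp90b1 lay within 0.14 of each other, and the sign of its differences turned under other settings. The comparison of PB in KO and that of the genotypes under DEN share the 4 KO DEN arrays, so a low value on these arrays enters both.

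**Figure D1:**
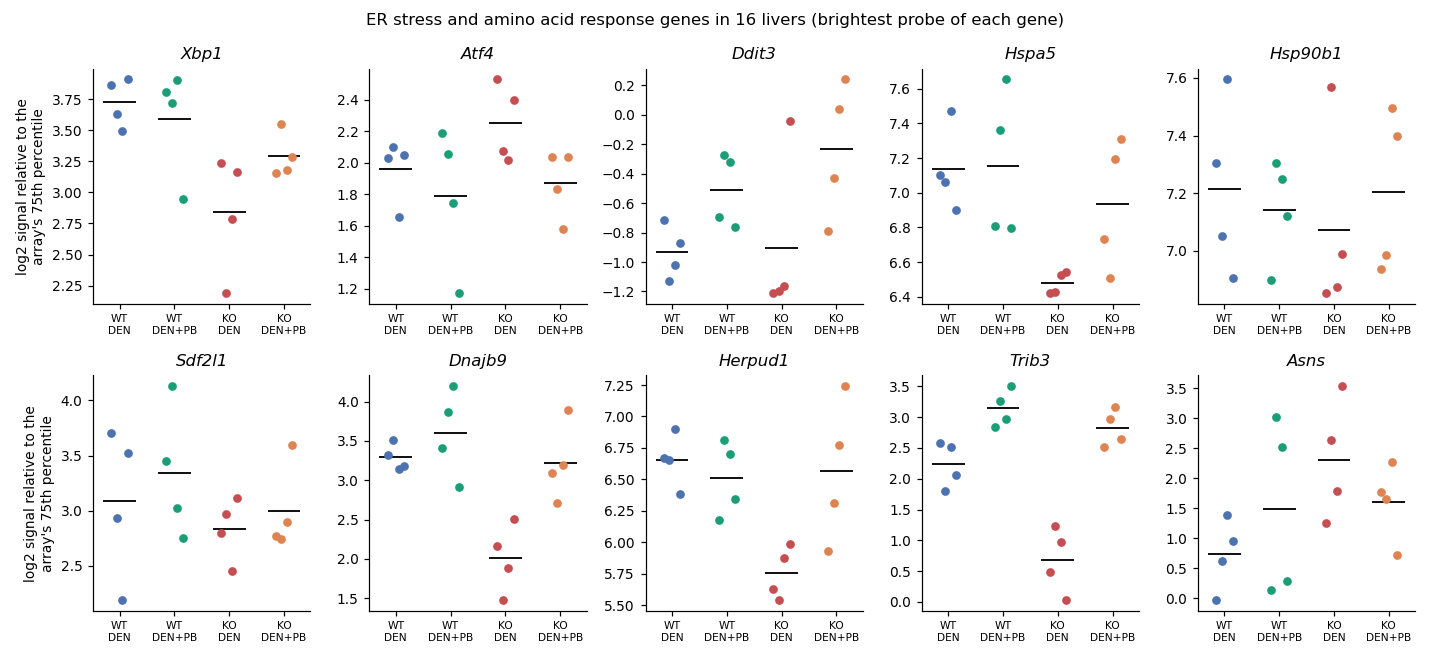
Level of each gene (log2 of the signal over the 75th percentile of its array, vertical axis, scaled for each gene) in the 4 groups, where a point is 1 liver and a black line the mean of 4. For Trib3 and Dnajb9 all 4 KO DEN livers lie below all 12 others, and for Asns the livers of WT DEN + PB and KO DEN are widely spread.

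Xbp1 was read by 1 probe, for which it could not be checked whether it tells the spliced from the unspliced form. Its level was 3.86, 3.63, 3.49 and 3.91 in WT DEN, 3.81, 3.72, 3.91 and 2.94 in WT DEN + PB, 3.24, 2.19, 2.79 and 3.16 in KO DEN, and 3.16, 3.55, 3.18 and 3.28 in KO DEN + PB. Without PB all 4 KO livers lay below the 4 WT livers. The genotype difference under DEN was -0.88 ± 0.24 with an adjusted p of 0.054, and the PB differences were -0.13 in WT and 0.45 in KO, neither of them called. Within slides the genotype difference under DEN was -1.67 and -0.26, so its size differed between the slides.

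Atf4 encodes the transcription factor at which PERK and GCN2 meet, and its control is mostly translational. Its level was 2.03, 2.10, 1.65 and 2.05 in WT DEN, 2.19, 2.05, 1.74 and 1.17 in WT DEN + PB, 2.53, 2.08, 2.02 and 2.40 in KO DEN, and 2.04, 1.83, 1.58 and 2.04 in KO DEN + PB. The groups overlapped. Its mRNA differed by -0.17 ± 0.21 with PB in WT and by -0.38 ± 0.21 in KO, and by 0.30 ± 0.21 between the genotypes under DEN, none of them called.

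Ddit3 encodes CHOP, a transcription factor that promotes cell death when ER stress persists. Its level was -0.71, -1.13, -1.02 and -0.87 in WT DEN, -0.69, -0.27, -0.32 and -0.76 in WT DEN + PB, -1.21, -1.19, -1.16 and -0.04 in KO DEN, and -0.79, -0.43, 0.04 and 0.24 in KO DEN + PB. Of the KO DEN livers, 3 lay close together at the low end and replicate 4 lay among the livers with PB. The PB difference was 0.42 ± 0.27 in WT and 0.67 ± 0.27 in KO, with adjusted p of 0.845 and 0.284, and the genotypes differed by 0.03 (95% confidence interval -0.53 to 0.59) under DEN.

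Hspa5 encodes BiP, the main HSP70-type chaperone of the ER, which also keeps the stress sensors silent. Its level was 7.10, 7.06, 7.47 and 6.90 in WT DEN, 6.81, 7.36, 7.65 and 6.80 in WT DEN + PB, 6.42, 6.43, 6.53 and 6.54 in KO DEN, and 6.73, 6.51, 7.19 and 7.31 in KO DEN + PB. The KO DEN livers were close together, with an SD of 0.064 against 0.24 to 0.42 in the other groups, and all of them lay below the WT DEN livers. The genotype difference under DEN was -0.65 ± 0.215 with an adjusted p of 0.101 and was not called. The PB difference was 0.02 (95% confidence interval -0.44 to 0.48) in WT and 0.46 ± 0.215 in KO, with an adjusted p of 0.413.

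Hsp90b1 encodes GRP94, the HSP90-type chaperone of the ER, and shares the ER stress element with Hspa5 in the windows above. Its level was 7.31, 7.05, 7.60 and 6.91 in WT DEN, 6.90, 7.31, 7.25 and 7.12 in WT DEN + PB, 6.85, 7.57, 6.88 and 6.99 in KO DEN, and 6.94, 6.99, 7.50 and 7.40 in KO DEN + PB. The 4 groups overlapped, and its group means spanned 0.14, the smallest range of the 10 genes. The PB difference was -0.07 (95% confidence interval -0.49 to 0.35) in WT and 0.13 (-0.29 to 0.56) in KO. The second probe gave -0.27 (-0.74 to 0.20) and 0.14 (-0.33 to 0.61) for the same comparisons, not called either, so a change of 1.5-fold lay outside the intervals of the brightest probe and within those of the second. Hsp90b1 and Ddit3 lie on chromosome 10, as Gadd45b does, and neither was called between the genotypes.

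Sdf2l1 encodes a stress-inducible ER protein that works with BiP and its co-chaperones. Its level ranged from 2.19 to 3.71 in WT DEN, from 2.76 to 4.13 in WT DEN + PB, from 2.46 to 3.11 in KO DEN and from 2.74 to 3.59 in KO DEN + PB. All groups overlapped and no comparison was called. The PB difference was 0.25 (95% confidence interval -0.45 to 0.95) in WT and 0.16 (-0.54 to 0.87) in KO, so a rise of 1.5-fold lay within both intervals.

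Dnajb9 encodes ERdj4, an ER co-chaperone of the HSP70-type chaperone BiP that XBP1 raises and that holds IRE1 inactive. Its level was 3.32, 3.51, 3.14 and 3.19 in WT DEN, 3.41, 3.88, 4.20 and 2.92 in WT DEN + PB, 2.16, 1.48, 1.88 and 2.50 in KO DEN, and 3.09, 2.71, 3.19 and 3.90 in KO DEN + PB. Every KO DEN liver was below all 12 others, while the other 3 groups overlapped. PB raised Dnajb9 in KO by 1.22 ± 0.29 (2.33-fold) with an adjusted p of 0.0389, a call that was lost with another background correction (normexp), quantile normalization, the series table without scaling, no filter on dim probes, the replicate number as a block, only the groups compared, no moderation of the variance or the mean over probes, where the adjusted p was 0.359 at most. In WT the difference was 0.31 (95% confidence interval -0.30 to 0.92) and was not called. The difference between the PB effects was -0.91 ± 0.41 with an adjusted p of 0.796. Under DEN, KO livers had less Dnajb9 than WT livers by -1.29 ± 0.29, which is 2.44-fold, with an adjusted p of 0.0246.

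The other Dnajb9 probes had the same order of groups at the low end. The genotype difference under DEN was -1.40 ± 0.35 (adjusted p of 0.041) on the second probe and -1.03 ± 0.29 (adjusted p of 0.0649) on the dimmest. The PB difference in KO was 1.15 ± 0.35 (adjusted p of 0.126) and 0.90 ± 0.29 (adjusted p of 0.153), neither of them called. Liver 4 of KO DEN + PB was the highest of its group on all 3 probes and liver 4 of KO DEN the highest of its own. The call for PB rests on the brightest probe and on most of the livers: it was lost when any 1 of 10 was left out (WT DEN replicates 1 and 4, WT DEN + PB 1 and 2, KO DEN 1, 2 and 3, KO DEN + PB 1, 3 and 4), with an adjusted p of 0.12 at most, reached without KO DEN + PB replicate 4. The call between the genotypes was lost without WT DEN replicate 1, 2 or 3 or KO DEN replicate 2, with an adjusted p of 0.0836 at most. Within slides the PB difference in KO was 2.42, 0.55 and 1.00, and the genotype difference under DEN was -1.85 and -0.98.

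Herpud1 encodes HERP, a membrane protein of the ER-associated degradation machinery. Its level was 6.67, 6.65, 6.90 and 6.38 in WT DEN, 6.18, 6.82, 6.70 and 6.34 in WT DEN + PB, 5.63, 5.54, 5.88 and 5.99 in KO DEN, and 5.93, 6.31, 6.78 and 7.24 in KO DEN + PB. The KO DEN livers lay below those of both WT groups and overlapped with 1 liver of KO DEN + PB. The genotype difference under DEN was -0.89 ± 0.24 with an adjusted p of 0.0526, just short of the threshold, and the PB difference in KO was 0.81 ± 0.24 with an adjusted p of 0.113. In WT the PB difference was -0.14 (95% confidence interval -0.65 to 0.36). The difference between the PB effects was -0.95 ± 0.34 with an unadjusted p of 0.0125 and an adjusted p of 0.593.

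Trib3 encodes a pseudokinase that ATF4 and CHOP raise and that restrains AKT signalling and ATF4 itself. Its level was 2.58, 1.81, 2.52 and 2.05 in WT DEN, 2.84, 3.26, 2.97 and 3.50 in WT DEN + PB, 0.49, 1.24, 0.98 and 0.03 in KO DEN, and 2.51, 2.97, 3.17 and 2.64 in KO DEN + PB. All 4 KO DEN livers were below all others, and in each genotype the 4 livers with PB lay above the 4 without it. PB raised Trib3 in KO by 2.14 ± 0.26 (log2, SE), or 4.4-fold, with an adjusted p of 0.000187. In WT the difference was 0.90 ± 0.26 and its adjusted p was 0.197, so it was not called, although the unadjusted p was 0.00289. The difference between these PB effects, WT minus KO, was -1.23 ± 0.36 with an adjusted p of 0.455 and an unadjusted p of 0.00374, so a dependence on genotype was not established after adjustment. KO DEN livers had less Trib3 than WT DEN livers by -1.55 ± 0.26, which is 2.93-fold, with an adjusted p of 0.00496. With PB the genotypes differed by -0.32 (95% confidence interval -0.87 to 0.23) and their livers overlapped.

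The second Trib3 probe, which is dimmer, read -3.24, -3.14, -2.61 and -2.89 in KO DEN and -1.57, -0.35, -1.01 and -0.96 in KO DEN + PB. It was called for PB in KO with a change of 2.00 ± 0.31 and an adjusted p of 0.00238. For KO against WT under DEN it gave -1.0 ± 0.31 with an adjusted p of 0.0873, and the highest KO DEN and the lowest WT DEN liver were only 0.027 apart, so the genotype difference was called by 1 probe of 2. For PB in WT the second probe gave 1.04 ± 0.31 with an adjusted p of 0.243, and here the livers with and without PB overlapped. Its difference between the PB effects was -0.96 ± 0.44 with an unadjusted p of 0.0458 and an adjusted p of 0.809. Within single slides, which carried 4 arrays each, the PB difference of Trib3 in KO was 1.40, 2.47 and 2.66 on the 3 slides that held both groups, and the genotype difference under DEN was -1.34 and -2.02 on the 2 slides that did.

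**Figure D2:**
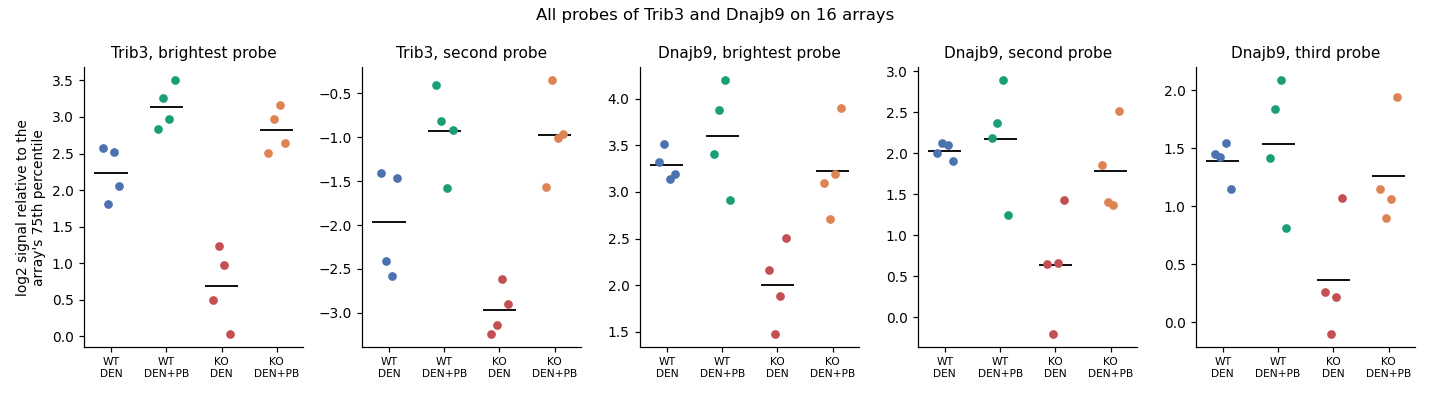
Level of each probe of Trib3 (2 probes) and Dnajb9 (3 probes) on the 16 arrays (log2 of the signal over the 75th percentile of its array, vertical axis, scaled for each probe), where a point is 1 liver and a black line the mean of 4. KO DEN has the lowest mean on all 5 probes, and on the 2 dimmer Dnajb9 probes KO DEN replicate 4 lies among livers of other groups.

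Asns encodes asparagine synthetase, the textbook amino acid response gene. Its level was -0.03, 0.62, 1.39 and 0.95 in WT DEN, 0.14, 3.02, 2.51 and 0.28 in WT DEN + PB, 1.25, 2.63, 1.79 and 3.53 in KO DEN, and 1.77, 1.66, 2.27 and 0.72 in KO DEN + PB. It varied more between livers of a group than any other of the 10 genes, with a pooled SD of 0.999 against 0.28 to 0.52 for the others. In WT DEN + PB the livers fell into a high and a low pair. KO DEN livers had more Asns than WT DEN livers by 1.57 ± 0.62, with an adjusted p of 0.165, and the groups overlapped. The PB difference was 0.75 (95% confidence interval -0.56 to 2.06) in WT and -0.70 (-2.01 to 0.61) in KO. Asns, Trib3 and Herpud1 share the amino acid response element in the windows above, a match of letters found in 3.97% of all windows. Of these genes, only Trib3 was called for PB in KO and between the genotypes under DEN. The part of the element in these differences was not tested.

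**Figure D3:**
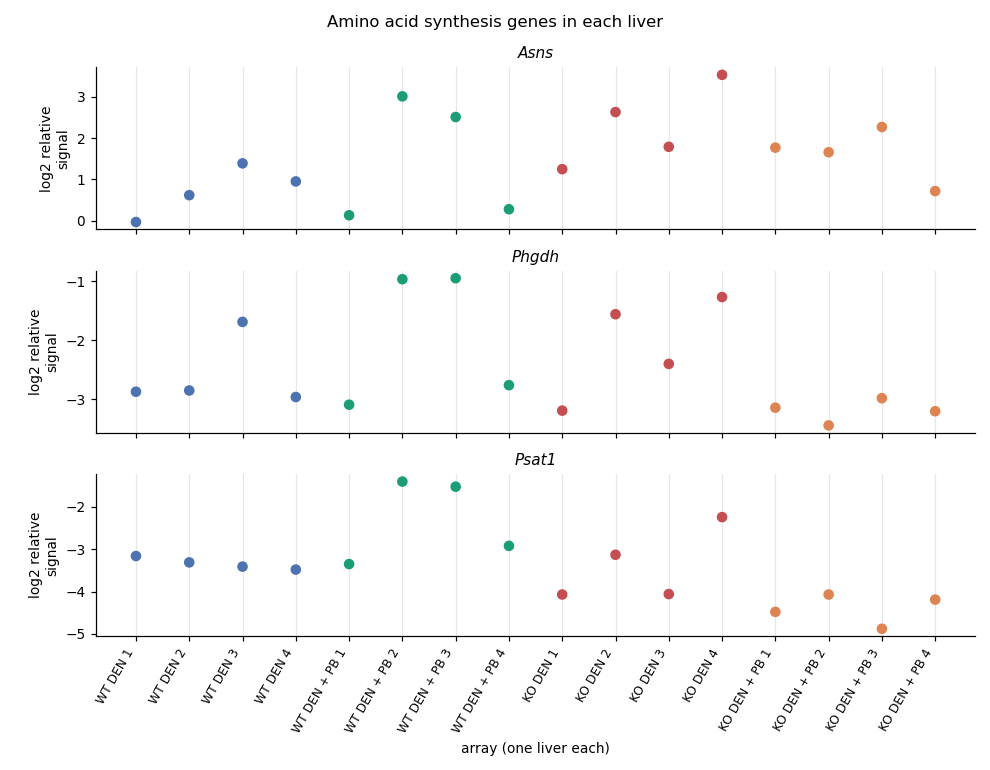
Level of Asns and of 2 genes of serine synthesis, Phgdh and Psat1, in each of the 16 livers (log2 of the signal over the 75th percentile of its array, vertical axis; livers by group on the horizontal axis). Asns, Phgdh and Psat1 are all high in WT DEN + PB replicates 2 and 3 and, within KO DEN, in replicates 2 and 4; the serine synthesis genes were picked after their values were seen.

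**Figure D4:**
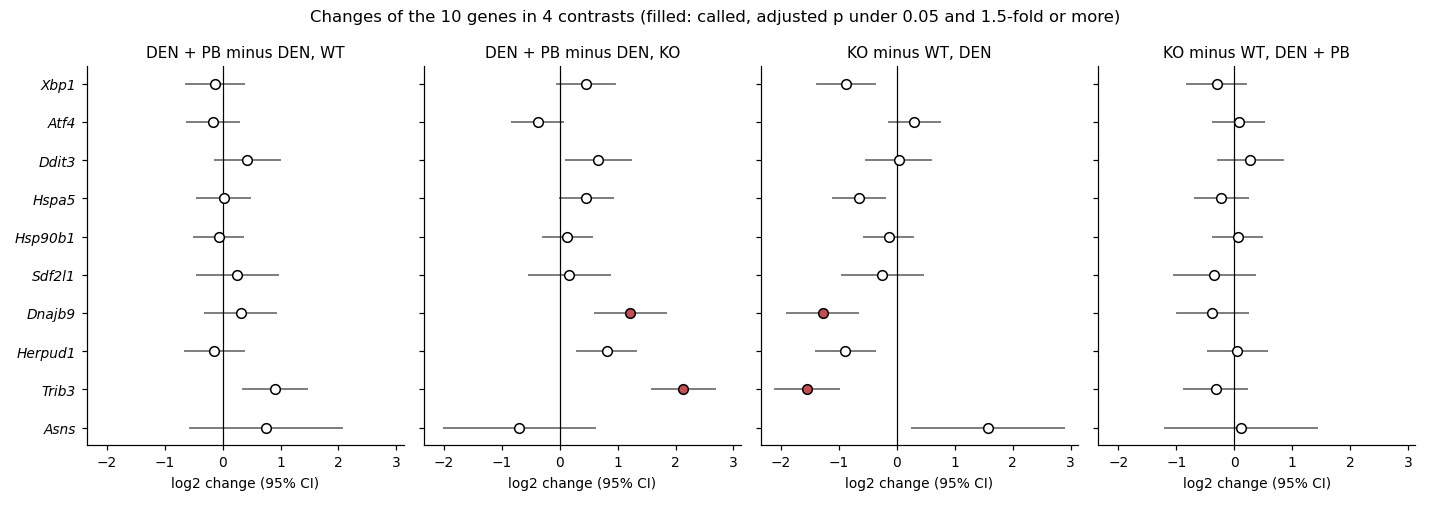
Change of each gene in 4 comparisons (log2 change, horizontal axis, with its 95% confidence interval from the limma fit), where filled points passed the call. Trib3 and Dnajb9 are filled for PB in KO and for KO minus WT under DEN, and no gene is filled in the other comparisons.

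Counted over the 10 genes, the calls were 2 for PB in KO, both higher, where 2.13% of the 13306 tested genes were called and 1.26% were called higher. Under DEN alone 2 were called between the genotypes, both lower in KO, where 2.76% of genes were called and 1.74% were called lower. For PB in WT 0 were called, where 0.737% of genes were, and 1 gene had an unadjusted p under 0.05. With DEN + PB 0 were called between the genotypes, where 7.61% of genes were, and 0 had an unadjusted p under 0.05. The difference between the PB effects was called for 0 of the 10 genes and for 0.0% of all genes, and 3 genes, Trib3, Herpud1 and Dnajb9, had an unadjusted p under 0.05.

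Between the genotypes under DEN, the livers of the groups did not overlap for 5 of the 10 genes (Hspa5, Xbp1, Herpud1, Trib3 and Dnajb9), as they did for 11.0% of all genes. For PB in KO this held for 2 genes against 8.6% of all genes, for PB in WT for 1 gene against 5.16%, and between the genotypes with DEN + PB for 0 genes against 17.3%. The median change of the 10 genes was 0.45 for PB in KO and -0.45 for KO against WT under DEN, where the medians over all genes were 0.0106 and -0.0356. For PB in WT it was 0.14 and between the genotypes with DEN + PB it was -0.08, where the medians over all genes were -0.0225 and 0.0311. Because the 10 genes were chosen with earlier results of these data known, these counts and medians are a description and no independent test.

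Other genes of the pathways were taken from lists, which were also chosen with earlier results of these data known. Of all tested genes, 0.737% were called for PB in WT and 2.13% for PB in KO. Between the genotypes, 2.76% were called under DEN and 7.61% with DEN + PB. Of 13 tested genes of stress sensing and its feedback, PB raised Eif2ak3 (PERK) in KO by 0.88 ± 0.17 with an adjusted p of 0.012, and no other. Eif2ak3 was lower in KO than in WT under DEN by -0.70 ± 0.17 with an adjusted p of 0.0362, and Ern1 (IRE1) was higher by 0.93 ± 0.22 with an adjusted p of 0.0334. Eif2ak3 had levels of -0.29, 0.05, -0.24 and 0.12 in KO DEN and of 0.55 to 1.05 in KO DEN + PB, without overlap. Ern1 had levels of -1.20, -0.40, -1.21 and -0.77 in KO DEN and of -1.98 to -1.69 in WT DEN. In KO DEN + PB it stood at -1.03, -0.61, -1.23 and -1.19, overlapping with KO DEN, and in WT DEN + PB between -1.97 and -1.02. Between the genotypes with DEN + PB, Atf3, a stress-induced transcription factor, was lower in KO by -0.75 ± 0.20 with an adjusted p of 0.0292.

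Of 21 tested ER chaperones and folding enzymes, Manf, a secreted protein that the ER stress response raises, was lower in KO under DEN by -0.99 ± 0.20 with an adjusted p of 0.0159. It stood at 3.88, 4.17, 4.05 and 4.01 in KO DEN and at 4.73 to 5.34 in WT DEN. No other gene of this list was called in any comparison, and the list had a median change of 0.13 for PB in KO and of -0.06 for KO against WT under DEN. Both medians turned under an alternative. That for PB in KO was -0.166 in the series table without scaling, where the median of all probes was -0.295. That for KO against WT under DEN was 0.0929 with normexp, where the median of all probes was -0.142. Of 28 genes of ER-associated degradation and translocation into the ER, 0 were called by limma in any comparison, and 4 for PB in KO and 5 for KO against WT under DEN had an unadjusted p under 0.05. For PB in KO 25 of the 28 were higher, 20 with quantile normalization and 22 with normexp. In the series table without scaling between arrays, 6 were higher. There the median change of all probes was -0.295 and that of the list -0.0995, so this count cannot tell a direction. For KO against WT under DEN 24 of the 28 were lower, but 12 were after another background correction (normexp), so no direction is given for this list.

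Of 25 tested targets of ATF4 and the amino acid response, Gdf15, a stress hormone that acts on appetite, rose with PB in WT by 1.42 ± 0.24 with an adjusted p of 0.0052 and in KO by 1.16 ± 0.24 with an adjusted p of 0.0168. No other gene of the list was called for PB, and none was called between the genotypes under DEN, where 2 had an unadjusted p under 0.05. With DEN + PB, 3 were called between the genotypes: Cth, an enzyme of cysteine synthesis, was higher in KO by 0.67 ± 0.19, and Psat1, an enzyme of serine synthesis, and Slc7a1, a carrier of cationic amino acids, were lower by -2.11 ± 0.43 and -0.82 ± 0.23. Their adjusted p were 0.0474, 0.0073 and 0.0431. On 1 of the 4 KO DEN + PB arrays, Psat1 did not clear the background. Of 13 aminoacyl-tRNA synthetases and related genes, Tars was lower in KO with DEN + PB by -0.65 ± 0.17 with an adjusted p of 0.0272, and no other was called in any comparison.

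**Figure D5:**
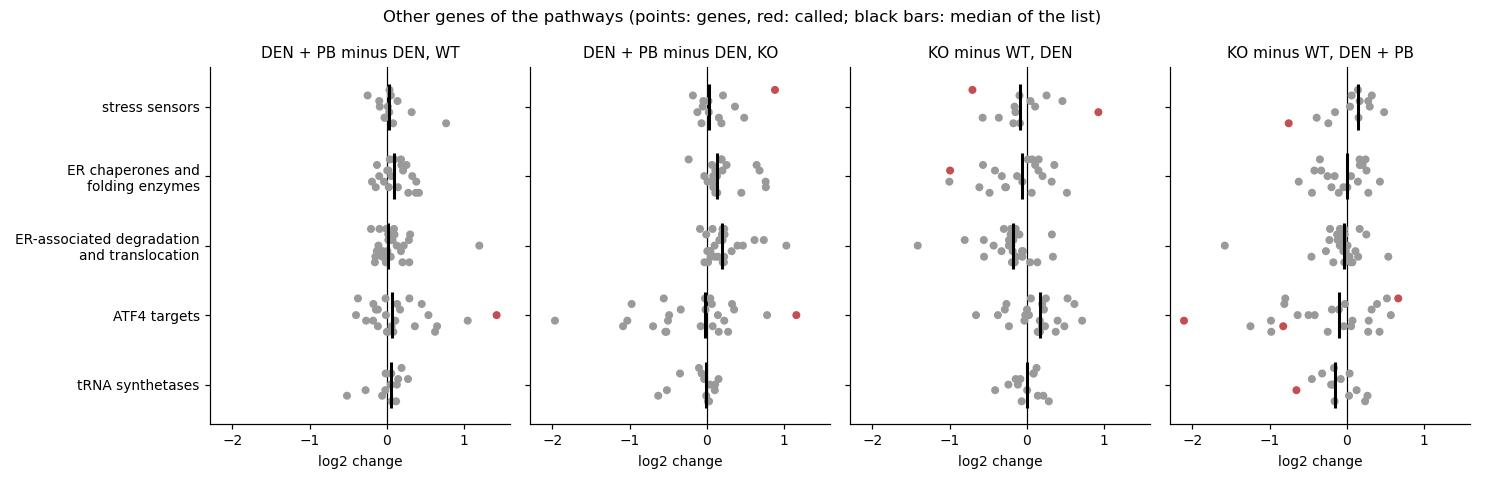
Change of each tested gene of 5 pathway lists (log2 change, horizontal axis) in 4 comparisons, where a point is 1 gene, red points were called and a black bar is the median of the list. The medians lie between -0.18 and 0.20.

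In whole tissue, fewer cells of a type and less RNA per cell cannot be told apart, and cell type markers were therefore set beside the genotype comparisons. Of the hepatocyte markers, 5 of 5 were well above background in every group. Their summed level, in multiples of the 75th percentile, was 880 to 1200 in WT DEN, 793 to 951 in WT DEN + PB, 995 to 1100 in KO DEN and 954 to 1200 in KO DEN + PB. Of the 5, 1 was called higher in KO with DEN + PB, and 0 were called in the other comparisons. The summed level of the macrophage and leukocyte markers was lower in KO: it was 18.7 to 36.8 in WT DEN, 21.8 to 25.6 in WT DEN + PB, 11.6 to 15 in KO DEN and 8.32 to 12.6 in KO DEN + PB. Of the 7 markers, Cd68 and Adgre1 were called lower in KO under DEN, by -1.35 and -1.94, and 5 were called lower with DEN + PB. Not all went this way: 2 of the 7 had a higher mean in KO under DEN and 1 with DEN + PB, none of them called. Of 6 stellate and endothelial markers, Pecam1 was called lower in KO under DEN and 3 were called lower with DEN + PB, and their summed level was 64.8 to 85.7 in WT DEN, 69.7 to 87.3 in WT DEN + PB, 48.5 to 66.1 in KO DEN and 45.0 to 55.3 in KO DEN + PB. Under DEN, 1 of the 6 had a higher mean in KO and was not called. The part of these cells in the lower Trib3 and Dnajb9 of KO DEN livers was not tested.

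Plasma cells and pancreatic acinar cells are rich in ER stress genes and were looked at for this reason. The summed level of 7 plasma cell and B cell markers was 9.65 to 15.3 in WT DEN, 10.1 to 12.6 in WT DEN + PB, 14.5 to 18.6 in KO DEN and 9.82 to 11.3 in KO DEN + PB. The ranges of WT DEN and KO DEN overlapped. Between the genotypes under DEN, 4 of the 5 tested markers had a higher mean in KO, and 0 were called. The ranges of KO DEN and KO DEN + PB did not overlap. For PB in KO all 5 tested markers were lower, with a median change of -0.998. Of these, 0 were called, although 5 had an unadjusted p under 0.05 in limma. Tnfrsf17, a defining plasma cell marker, did not clear the background anywhere in 3 of the groups. Of 14 pancreatic acinar markers, Cpa1, Pnlip, Prss2 and Clps did not clear the background anywhere, and the summed level was 0.387 to 0.668 in WT DEN, 0.719 to 1.16 in WT DEN + PB, 0.336 to 0.595 in KO DEN and 1.2 to 1.75 in KO DEN + PB. Pnliprp1 of this list was called higher with PB in both genotypes. Cholangiocyte markers had summed levels of 11.9 to 31.7, 17.7 to 35.5, 12.2 to 36.5 and 12 to 15.4 in the same order of groups, and 0 of 5 were called for PB in KO or between the genotypes under DEN, while Krt19 and Krt7 were called higher with PB in WT. Between the genotypes with DEN + PB, 3 of the 5 cholangiocyte markers and 1 of the plasma cell and B cell markers (Cd79b) were called lower in KO, and 2 of the acinar markers (Pnliprp1 and Cel) were called higher. The part of these cells in the changes of the 10 genes was not tested either.

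The genes whose levels followed that of Hspa5 most closely over the 16 livers, of 13280 compared, were Manf with a Pearson r of 0.946, Piga with 0.936, Creld2 with 0.93, Copb1 with 0.91 and Tbc1d15 with 0.905. Manf and Creld2 are ER stress genes of the chaperone list and Copb1 is a subunit of the coat of vesicles between Golgi and ER. The genes closest to Trib3 were Tmed3 with 0.931, Adora1 with 0.929, Krt23 with 0.919, Rusc1 with 0.911 and Dbp with 0.91, of which Tmed3 is a cargo receptor of the early secretory pathway and Dbp a transcription factor of the circadian clock. None of the 10 genes was among the 5 closest to Hspa5 or to Trib3. The livers share their groups and arrays, so these values describe likeness over these samples.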

How the data were processed

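Liver RNA was labelled with Cy3 and hybridised to Agilent whole mouse genome arrays of 1 colour, 1 array per mouse, and the authors extracted the scans with Feature Extraction 12.0.3.1. The authors deposited its processed signal, a linear intensity corrected for background but not scaled between arrays, and the series table holds the same intensity averaged per probe. Spots marked as outliers were left out, repeat spots were averaged, and the array's 75th percentile was subtracted from the log2 signal. Probes entered the test if all 4 arrays of some group showed them well above background (24457 of 41174). Group means were fitted with limma 3.58.1 in R 4.3.3, tested before on simulated data, with Benjamini-Hochberg adjustment over all tested probes. Called means an adjusted p under 0.05 and 1.5-fold or more; the study names the same thresholds in an ANOVA. Single genes were also tested by two-sided exact permutation, where 4 arrays against 4 allow no p under 0.0286. Probes were named through RefSeq (GRCm38.p6) without use of coordinates, since the array grid was built on mm9. A gene was read by its brightest probe, and all 10 genes are named. From each pathway list, the called genes were named, at most 3 higher and 3 lower in a comparison. The 5 genes most like Hspa5 and Trib3 were named by Pearson r. Members and lists were chosen with earlier results of these data known. Alternatives were 2 forms of normexp background correction (offset 50; on the median signal, as the mean signal was not among the columns used here), quantile normalization, the series table without scaling, no filter, slide or replicate number as a block, only the groups compared, no moderation of the variance, the mean over probes, and leaving out each array. The number of arrays limits the precision.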

Additional observations from a re-analysis of the deposited data

Results flagged for a closer look

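In 40 groups of 4 livers (10 genes in 4 groups), 2 values stood apart from the other 3 of their group by Dixon's test, which chance alone does in about 1 group of 20. Ddit3 stood at -0.0415 in KO DEN replicate 4, against -1.21 to -1.16 in the other KO DEN livers. The same liver was the highest of its group for 6 of the 10 genes. Atf4 stood at 1.65 in WT DEN replicate 3, against 2.03 to 2.10 in the other WT DEN livers.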

How the results depend on the processing

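Under the alternatives, Trib3 stayed called for PB in KO in 10 of 10 and without each of the 16 arrays in turn, with changes of 1.84 to 2.32. Its genotype difference under DEN (-1.74 to -1.27) stayed called in 9 of 10 and without each of the 16 arrays, but not with normexp (adjusted p of 0.158). Dnajb9 was called for PB in KO in 2 of 10 alternatives and under DEN in 6 of 10, and Herpud1, not called in the report, was called under DEN in 5 of 10. The count of the 10 genes called for PB in KO, 2 as reported, was 1 (Trib3) with normexp, quantile normalization, the series table, no filter, the replicate block, only the groups compared, no moderation or the mean over probes, and 1 to 2 when single arrays were left out. For KO against WT under DEN the count, 2 as reported, was 0 with normexp and 4 with normexp without outlying backgrounds. With the series table, no filter or no moderation the count was 1. It was 3, with Herpud1 added, with slide or replicate number as a block, only the groups compared or the mean over probes. The count stayed at 2 with quantile normalization and was 1 to 3 when single arrays were left out. For PB in WT it was 0 as reported and 1 (Trib3) with normexp without outlying backgrounds. The counts of 0 in the other comparisons were unchanged by these alternatives. The causes were not tested. Samples with the same replicate number did not deviate together (18 of 24 correlations were at or under 0.1), so the replicate block, which left 1 call for PB in KO, is no paired analysis. Of the 50 changes fitted, the 14 with an unadjusted p under 0.05 kept their sign throughout; of the other 36, 18 turned at least once, and their signs are not to be read as directions. Hspa5 has no value with normexp without outlying backgrounds.

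The median change of the 10 genes kept its sign under quantile normalization, normexp and the series table for PB in KO (0.156 to 0.45) and for KO against WT under DEN (-0.45 to -0.26), but with normexp the median of all probes in the latter was itself -0.142, and with the series table that for PB in KO was -0.295. The arrays limit what can be seen to changes of about the intervals given. Each slide held at most 2 arrays of a group, and KO DEN was not on slide 2 nor WT DEN on slide 4, so within-slide values rest on 1 or 2 livers a group. Slide as a block added Herpud1 to the calls for PB in KO, for 3 in all.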

Other observations

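Asns was high in single livers of different groups, and genes of serine synthesis were high in the same livers; these genes were picked after their values were seen, and the values are given as a description. Phgdh, the first enzyme of serine synthesis, stood at -0.97 and -0.95 in WT DEN + PB replicates 2 and 3 and at -3.09 and -2.76 in replicates 1 and 4 of that group, whose Asns levels were 3.02, 2.51, 0.14 and 0.28 in the same order. Psat1 stood at -1.40 and -1.52 in replicates 2 and 3 and at -3.35 and -2.92 in replicates 1 and 4. In KO DEN, replicates 2 and 4 had the highest levels of Asns (2.63 and 3.53), of Phgdh (-1.56 and -1.27) and of Psat1 (-3.13 and -2.24). In KO DEN + PB, Asns ranged from 0.72 to 2.27 while Phgdh stayed between -3.44 and -2.98, so the parallel did not extend to that group. In WT DEN, too, Psat1 did not follow Asns: replicate 3 had the highest Asns (1.39) with a Psat1 of -3.41, and replicate 1 the lowest Asns (-0.03) with the highest Psat1 of the group (-3.16). Phgdh was highest in replicate 3 of this group (-1.69) and stood at -2.87, -2.85 and -2.96 in replicates 1, 2 and 4. Of these, replicate 4 had the lowest Phgdh with an Asns of 0.95.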
